A study of Ambystoma mexicanum with 6 samples.

Results

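A set of 4 interferon pathway genes was followed transcript by transcript in regenerating limbs of the axolotl, Ambystoma mexicanum. They are the assembled genes whose best protein match (blastx entry) was IRF3_CHICK (c1089402_g2), TRI25_MOUSE (c1073709_g1), JAK2_PIG (c1071002_g3) and DSRAD_RAT (c1069305_g2), and they are called IRF3, TRI25, JAK2 and DSRAD below. Members were chosen by identifier: every assembled transcript of these 4 genes was taken, 16 of 1554055 transcripts, in 4 of 1388798 assembled genes. The 4 genes themselves were chosen with earlier results of these data known, so shares of members set beside shares of all features are descriptions. The study asked how regenerating limbs respond to iMDK, a small molecule used to inhibit the growth factor midkine. Limbs of juvenile white axolotls were amputated, the animals were kept in iMDK or in its solvent DMSO from amputation on, and limb RNA was taken for sequencing 11 days after amputation (11 dpa). The libraries came from 3 iMDK limbs and 3 DMSO limbs. Each limb was from a different animal as the study describes it. The p-values below rest on the spread among those limbs, moderated over all features. For tests within a gene the spread was pooled over the transcripts of that gene. The drug reached the whole animal, not the limb alone.

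Interferons are secreted proteins that cells make when sensors meet viral or misplaced nucleic acid. Their receptors signal through JAK kinases to a large set of genes whose products degrade, edit or hold back foreign RNA. In mammals IRF3 is a transcription factor that starts interferon production, TRIM25 is a ubiquitin ligase that helps the RNA sensor RIG-I to signal, JAK2 is a kinase of cytokine receptors that include the interferon-gamma receptor, and ADAR (entry DSRAD) is a deaminase that edits adenosine to inosine in double-stranded RNA. The chicken protein under the entry IRF3_CHICK is often regarded as IRF7, a close relative with a similar role, and which of these the axolotl gene is cannot be told from the name. In RefSeq's axolotl annotation (UKY_AmexF1_1) the symbols IRF3, IRF7, TRIM25, JAK2 and ADAR each belong to 1 gene, but no assembled identifier matched a RefSeq entry, so no position or sequence is given here.

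Values were TPM (a library's share of transcript molecules, corrected for transcript length) multiplied by a library scaling factor (TMM), and a gene sum is the total over all transcripts of an assembled gene. A TPM table keeps no read totals, so the depth of the libraries is unknown; transcripts above 0 numbered between 126965 in iMDK 1 and 198094 in DMSO 2. The limbs were whole tissue: the summed markers of epidermis (10 genes) lay between 11322 and 13026 in iMDK limbs and between 7870 and 12037 in DMSO limbs, those of connective tissue (5 genes) between 1514 and 1564 and between 770 and 1876, and no marker gene of the 7 cell type lists was at 0 in all libraries. In such tissue, fewer cells of a type and less RNA per cell cannot be told apart. Of the 44342 gene sums tested with limma on log2(value + 0.5), 24 passed an adjusted p under 0.05 and a fold above 2 (0.0541%), and 0 of the 4 members were among them.

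In both groups DSRAD was the most abundant of the 4 genes, followed by IRF3, TRI25 and JAK2. DSRAD lay above IRF3 in every limb. IRF3 and TRI25 overlapped in both groups, and so did TRI25 and JAK2 in iMDK limbs, since TRI25 lay below JAK2 in iMDK 2. None of the 4 gene sums had an unadjusted p under 0.05 (limma; 10.7% of all tested genes had one), while the spread between limbs of one group was wide for IRF3 and TRI25. The plot of gene sums by limb shows each value.

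**Figure D1:**
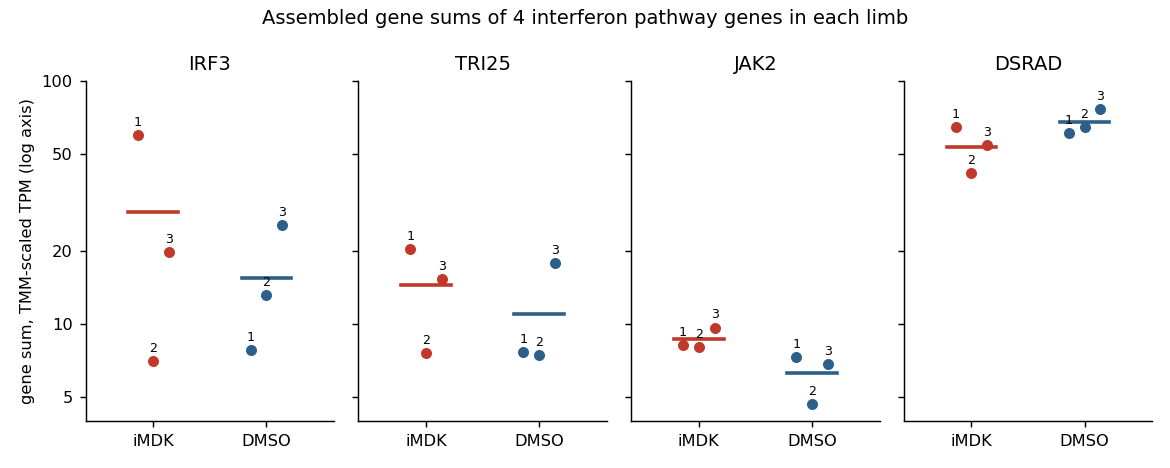
Gene sums of the 4 interferon pathway genes in each limb (vertical log axis, TMM-scaled TPM), iMDK limbs in red on the left and DMSO limbs in blue on the right of each panel. Points are single limbs with their replicate numbers and bars are group means of 3; IRF3 spans 7.04 to 59.7, and only the JAK2 limbs do not overlap between groups.

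The gene sum of IRF3 was 59.7, 7.04 and 19.8 TPM in iMDK limbs 1, 2 and 3, against 7.85, 13.1 and 25.5 TPM in DMSO limbs 1, 2 and 3. The highest and the lowest value both stood in iMDK limbs, 8.48-fold apart, and the DMSO limbs lay between them. The means were 28.9 ± 27.5 TPM in iMDK limbs and 15.5 ± 9.04 TPM in DMSO limbs (SD, n = 3 each). The log2 difference of 0.55 had a standard error of 0.77 and a 95% interval of -1.29 to 2.39 (limma adjusted p = 0.848). Without iMDK 1 the log2 difference was -0.21.

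TRI25, at a lower mean than IRF3 in both groups, was also highest in iMDK 1 and DMSO 3 and lowest among iMDK limbs in iMDK 2. Its gene sum was 20.3, 7.60 and 15.4 TPM in iMDK limbs, against 7.71, 7.44 and 17.8 TPM in DMSO limbs. iMDK 2, DMSO 1 and DMSO 2 lay low and close together, iMDK 1, iMDK 3 and DMSO 3 lay high, and the groups overlapped. The log2 difference was 0.39 with a standard error of 0.46 and a 95% interval of -0.71 to 1.49 (limma adjusted p = 0.835). It depended on single limbs, at 0.098 without iMDK 1 and 0.78 without iMDK 2 or without DMSO 3.

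JAK2 had the lowest mean gene sum of the members and varied little among iMDK limbs. It stood at 8.25, 8.02 and 9.69 TPM in iMDK limbs, against 7.32, 4.69 and 6.89 TPM in DMSO limbs. Every iMDK limb lay above every DMSO limb, which held for 16.6% of all tested genes in one direction or the other, and JAK2 was the only one of the 4 members whose gene sums did not overlap. The log2 difference of 0.45 (SE 0.23, 95% interval -0.11 to 1.0) did not pass the test (limma adjusted p = 0.583). Of the tested JAK2 transcripts, only JAK2 i4, described below, had a log2 difference above 0. It held a mean of 53.9% of the sum in iMDK limbs and 0.0097% in DMSO limbs. The transcripts listed with the JAK2_PIG match, i1 and i5, had log2 differences below 0, at -1.62 and -0.82, neither of them called.

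DSRAD was the only member with a gene sum whose difference was below 0. Its sum was 64.5, 41.7 and 54.4 TPM in iMDK limbs, against 61.2, 64.8 and 76.9 TPM in DMSO limbs. iMDK 1 lay within the range of the DMSO limbs, and iMDK 2 and iMDK 3 lay below it. The log2 difference was -0.35 with a standard error of 0.20 and a 95% interval of -0.82 to 0.13 (limma adjusted p = 0.634).

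Below the level of gene sums, the values were followed for single transcripts. Of the 16 member transcripts, 10 reached 1 TPM in at least 3 of the 6 libraries and were tested; the other 6 did not exceed 2.5 TPM in any library, and 1 of them, JAK2 transcript i3 (c1071002_g3_i3), was at 0 in all of them. Of the 10, 2 passed this filter through one group alone, JAK2 i4 through the iMDK limbs and IRF3 i3 through the DMSO limbs. These 2 therefore had to differ between the groups to be tested at all. IRF3 i2 and JAK2 i1 also passed only with the group where they were higher. In the other group, DMSO 3 alone reached 1 TPM for IRF3 i2 and iMDK 3 alone for JAK2 i1. TRI25 i2 and JAK2 i5 also needed the group with the higher mean. DMSO 2 stayed under 1 TPM for TRI25 i2 and iMDK 3 for JAK2 i5. The tests of all of these transcripts, and the counts of members that include them, are given as a description. Over the 51718 transcripts tested with limma, 0.541% were called, and among the members 1 was called, JAK2 i4, which was higher in iMDK limbs (0.311% of all tested transcripts were called higher and 0.23% lower). Groups did not overlap for 5 of the 10 tested members and for 17% of all tested transcripts. An unadjusted p under 0.05 was found for 5 of the 10, of which 2 were higher in iMDK limbs (5.97% of all tested transcripts were) and 3 lower (5.27%).

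A second test asked whether a transcript moved apart from the other transcripts of its own gene. This test of isoform use (diffSplice in limma) called 4 of the 10 members, against 4.65% of the 18486 transcripts in it, and its gene-level F test called IRF3 (limma adjusted p = 0.0114) and JAK2 (limma adjusted p = 0.00389), against 5.65% of 7599 genes. DSRAD and TRI25 were not called. The 4 were JAK2 i4, JAK2 i1, IRF3 i2 and IRF3 i3, each of which passed the filter only with the group where it was higher. The F tests of both genes include a transcript that passed the filter through one group alone, so all these calls are descriptions. Transcripts of one gene share its total, so that a higher share of one lowers the shares of the others, and the calls within a gene are not independent of each other. The test also pools the spread between limbs over the transcripts of a gene, although these come from the same limbs. Whether the assembled transcripts of a gene are splice forms, alleles of different animals or pieces of the assembly is not stated in the sources at hand. The program that assigned the reads, kallisto, divides them among near-identical transcripts, so a value of 0 can be a failed estimate. Shares of the gene sum in each limb are drawn in the stacked bars.

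**Figure D2:**
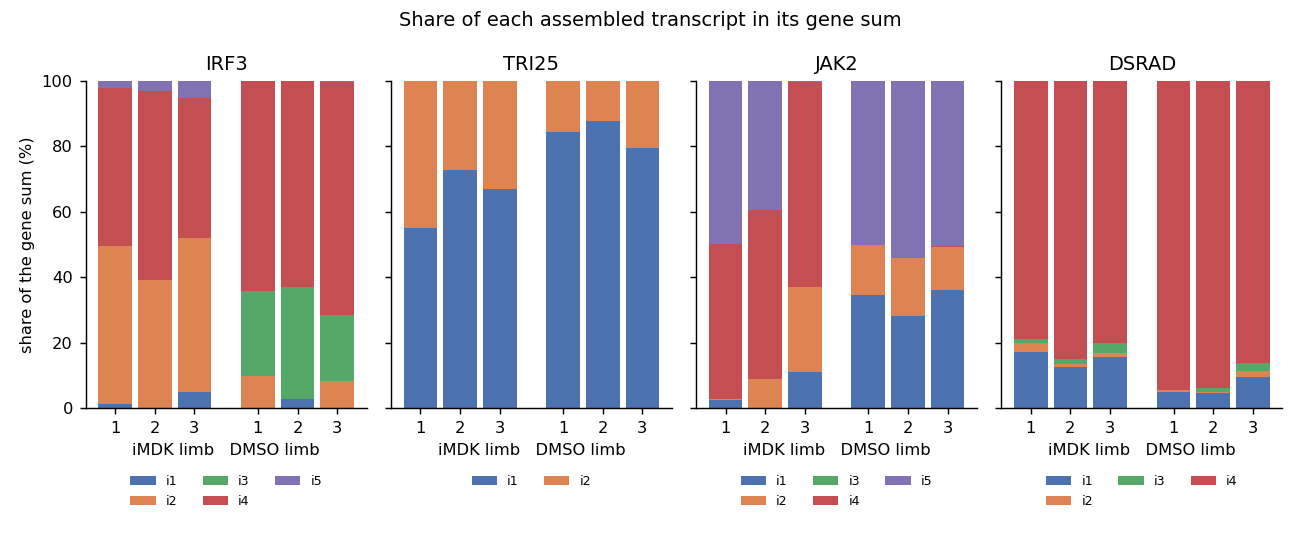
Share of each assembled transcript in its gene sum (vertical axis, percent) for the 4 genes, with iMDK limbs 1 to 3 left of DMSO limbs 1 to 3 in each panel and colours for transcripts i1 to i5. JAK2 i4 makes up 47.5 to 62.6% of the JAK2 sum in iMDK limbs and at most 0.029% in DMSO limbs, and IRF3 i2 39.2 to 48.1% of the IRF3 sum in iMDK limbs and at most 9.75% in DMSO limbs.

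JAK2 i4 (c1071002_g3_i4) was at 3.92, 4.14 and 6.06 TPM in iMDK limbs, against 0.002 TPM in DMSO 3 and a listed 0 in DMSO 1 and DMSO 2. By these estimates all 3 iMDK limbs held this transcript at a similar level, and no DMSO limb held it at more than a trace. Since reads are divided among near-identical transcripts, the listed 0 can be a failed estimate. The log2 difference on the scale with 0.5 added was 3.36 (SE 0.40, limma adjusted p = 0.0260), a value that depends on the added constant, and no fold is given against a group listed at 0. Against the other JAK2 transcripts the p was smaller (isoform log2 difference 4.58, limma diffSplice adjusted p = 0.0016). Both are descriptions, since the filter let i4 in through the iMDK limbs. The call on the level was lost without any 1 of the 6 libraries (limma adjusted p between 0.0784 and 0.162). The log2 difference stayed between 3.18 and 3.46 in these runs. Calls over all transcripts fell from 280 to between 78 and 138.

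The other JAK2 transcripts lay lower or overlapped. JAK2 i1 (c1071002_g3_i1), which carries the JAK2_PIG match, was at 0.219, 0 and 1.08 TPM in iMDK limbs, against 2.53, 1.32 and 2.49 TPM in DMSO limbs. Its groups did not overlap, the level was not called (log2 difference -1.62, limma adjusted p = 0.356), and its isoform use was called lower (limma diffSplice adjusted p = 0.0446). That call is a description too, since i1 passed the filter only with the DMSO limbs. It was lost in 9 of 13 alternatives, 5 of them the loss of 1 library (limma adjusted p up to 0.226 without iMDK 2). JAK2 i5 (c1071002_g3_i5), the second transcript listed with that match, stood at 4.10, 3.16 and 0.042 TPM in iMDK limbs, against 3.67, 2.54 and 3.48 TPM in DMSO limbs. It too passed the filter only with the DMSO limbs. iMDK 3 alone was near 0, and there JAK2 i2, an untested transcript that is not among the named ones, had its own highest value, 2.5 TPM. In percent of the gene sum, i4 therefore stood at 47.5, 51.6 and 62.6% in iMDK limbs 1 to 3, and i5 at 49.8, 39.4 and 0.43%. In DMSO limbs i1 held 34.6, 28.1 and 36.2% of the sum and i5 50.1, 54.1 and 50.6%. The transcript that was called, i4, is not among the named transcripts. Names cover only transcripts that differed in the skin suture experiment of the study, so whether i4 has a protein match is unknown. Its place in JAK2 is taken from the assembly.

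In IRF3, 2 transcripts differed between the groups in opposite directions. IRF3 i2 (c1089402_g2_i2) was at 28.7, 2.76 and 9.33 TPM in iMDK limbs, against 0.765, 0 and 2.13 TPM in DMSO limbs. IRF3 i3 (c1089402_g2_i3), which carries the IRF3_CHICK match, was listed at 0 in all 3 iMDK limbs, against 2.04, 4.49 and 5.15 TPM in DMSO limbs. The groups did not overlap for either, in opposite directions. Neither level passed the test, with log2 differences of 3.04 for i2 (SE 0.93, limma adjusted p = 0.263) and -3.05 for i3 (SE 0.48, limma adjusted p = 0.0682). Their isoform use was called, higher in iMDK limbs for i2 (limma diffSplice adjusted p = 0.0146) and lower for i3 (limma diffSplice adjusted p = 0.0117). Both calls are descriptions, since the filter let i3 in through the DMSO limbs and i2 only with the iMDK limbs. The test also sets i2 against the other IRF3 transcripts, i3 among them. On the log2 ratio to the sum of the other transcripts neither was called (limma adjusted p = 0.0749 for i2 and 0.0830 for i3). Without DMSO 2 the isoform p-values of i2 and i3 became 0.110 and 0.0781, and without iMDK 3 they became 0.0891 and 0.0681 (limma adjusted p), so both calls rest on those libraries.

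The IRF3 transcript with the highest mean in both groups, i4, did not separate them by its level, though its shares did not overlap. In iMDK 3 it lay below i2. IRF3 i4 (c1089402_g2_i4) was at 28.8, 4.07 and 8.52 TPM in iMDK limbs, against 5.04, 8.26 and 18.1 TPM in DMSO limbs. Its limbs overlapped, with the order of the gene sum (log2 difference 0.14, limma adjusted p = 0.956). As a share of the sum it made up 48.3, 57.8 and 42.9% in iMDK limbs and 64.2, 62.9 and 71.0% in DMSO limbs, while i2 made up 48.1, 39.2 and 47.0% in iMDK limbs and 9.75, 0 and 8.38% in DMSO limbs. The share of i2 was thus nearly level over the 3 iMDK limbs although its TPM differed widely between them. IRF3 i1 and i5 were untested, at 1.28 TPM or less in every library. Neither i2 nor i4 is among the named transcripts, so for most of the IRF3 sum a protein match is unknown. That part is placed in this gene by the assembly. The transcripts listed with the IRF3_CHICK match, i1 and i3, had means of 0.61 and 0 TPM in iMDK limbs, against 0.13 and 3.89 TPM in DMSO limbs.

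DSRAD consisted mostly of one transcript. DSRAD i4 (c1069305_g2_i4), the one listed with the DSRAD_RAT match, was at 50.9, 35.4 and 43.5 TPM in iMDK limbs, against 57.8, 60.7 and 66.3 TPM in DMSO limbs. All iMDK limbs lay below all DMSO limbs, with a log2 difference of -0.52 that was not called (95% interval -0.95 to -0.08, limma adjusted p = 0.346). DSRAD i1 (c1069305_g2_i1) stood at 11.1, 5.21 and 8.51 TPM in iMDK limbs, against 3.01, 2.96 and 7.33 TPM in DMSO limbs, and overlapped through DMSO 3. Its share of the sum was 17.2, 12.5 and 15.6% in iMDK limbs, against 4.91, 4.58 and 9.53% in DMSO limbs, and isoform use of DSRAD was not called (limma F test adjusted p = 0.255).

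TRI25 had 2 transcripts, both tested. TRI25 i2 (c1073709_g1_i2), with the TRI25_MOUSE match, was at 9.14, 2.06 and 5.08 TPM in iMDK limbs, against 1.20, 0.919 and 3.65 TPM in DMSO limbs. TRI25 i1 (c1073709_g1_i1) was at 11.2, 5.54 and 10.3 TPM in iMDK limbs, against 6.51, 6.52 and 14.1 TPM in DMSO limbs. Both overlapped between groups and neither was called (log2 differences of 1.26 for i2, limma adjusted p = 0.539, and 0.03 for i1, limma adjusted p = 0.980). The test of i2 is a description, since i2 passed the filter only with the iMDK limbs. The share of i2 was 44.9, 27.1 and 33.0% in iMDK limbs, against 15.6, 12.4 and 20.5% in DMSO limbs, and the isoform test did not call it (limma F test adjusted p = 0.643).

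As shares of the gene sum, none of the 10 tested members overlapped between groups, against 17.2% of the 18178 transcripts in the isoform test with a gene sum above 0 in every library, and 5 of the 10 also had means more than 20 percentage points apart, against 8.1%. Members of one gene mirror each other in these counts, and the filter had to be passed to enter them. Limma on the log2 ratio of each transcript to the sum of the others, chosen after seeing the data because it leaves each transcript its own spread, called 1 member, JAK2 i4 (limma adjusted p = 0.0079), against 2.4% of all transcripts in it. By that measure 9 of the 10 had an unadjusted p under 0.05, against 11.6%.

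The second pattern in these genes was the order of limbs within a group. IRF3, TRI25 and DSRAD each had their highest iMDK value in iMDK 1, their lowest in iMDK 2 and their highest DMSO value in DMSO 3. JAK2 was the exception, with its highest values in iMDK 3 and DMSO 1. Taken one by one, iMDK 1 was highest of the iMDK limbs in 36.5% of all tested genes, iMDK 2 lowest in 30.5% and DMSO 3 highest of the DMSO limbs in 29.6%. Among tested genes with a mean of at least 10, these shares were 53.7, 34.9 and 30.9%. All 3 places were taken at once in 6.17% of all tested genes, and in 8.98% of those with a mean of at least 10. The order was noticed in the values, so it is given as a description and was not tested.

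The size of this variation differed between the genes. The SD of the log2 gene sum was 1.5 over iMDK limbs and 0.82 over DMSO limbs for IRF3. Among tested genes with a mean of at least 10, 1.04% had an SD over iMDK limbs as large as that of IRF3, and 8.11% had as large an SD over DMSO limbs. Among all tested genes, low ones included, these shares were 9.09% and 36.3%. TRI25 lay in between, with SDs of 0.70 over iMDK limbs (7.18% of genes with a mean of at least 10 as large, 38.6% of all tested genes) and 0.68 over DMSO limbs (12.2% and 41.9%). The medians of genes with a mean of at least 10 were 0.23 over iMDK limbs and 0.29 over DMSO limbs. DSRAD had SDs of 0.31 over iMDK limbs (32.0% of those genes as large) and 0.17 over DMSO limbs (77.0%). JAK2, itself under 10 TPM in every limb, had SDs of 0.14 over iMDK limbs (75.4%) and 0.32 over DMSO limbs (44.2%). The map of the SDs places the 4 genes among all others.

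**Figure D3:**
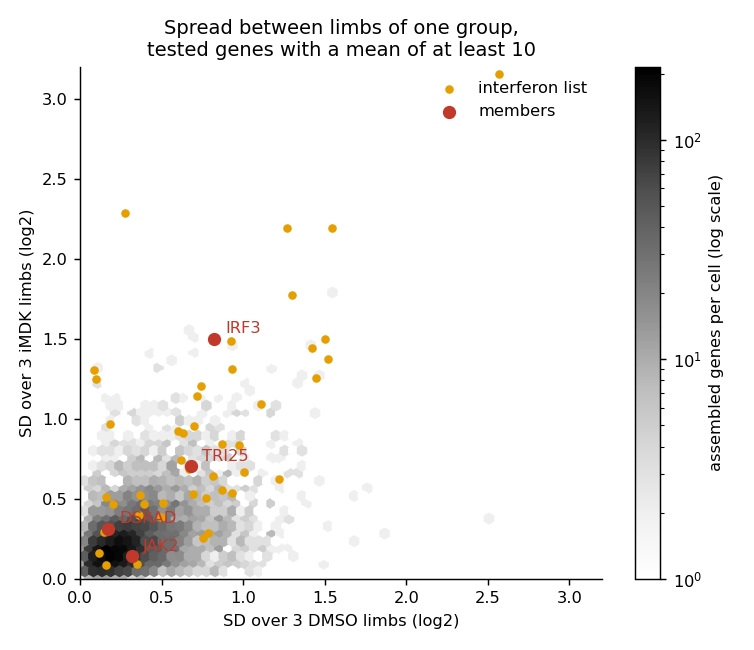
SD of the log2 gene sum over the 3 iMDK limbs (vertical axis) against that over the 3 DMSO limbs (horizontal axis). Grey cells count tested genes with a mean of at least 10 (log scale), gold points are the 44 tested interferon pathway genes of the list and red points the 4 members, at any mean; IRF3 (1.5 and 0.82) lies outside the bulk, JAK2 and DSRAD within it.

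Other genes of the pathway were taken from a list by role: 38 entry names, which covered 45 assembled genes, 44 of them tested. Names come from the study's lists of transcripts that differed between limbs with skin sutured over the stump and normal regenerating limbs. The list was thus drawn from genes selected in that experiment, while all tested genes, the comparison below, were not. None of the 44 was called, and none had an unadjusted p under 0.05 (limma; 10.7% of all tested genes had one). The differences lay above 0 for 40 of the 44, against 49.3% of all tested genes, with a median log2 difference of 0.51 (all tested genes -0.01). This median depended on single limbs. It was 0.13 without iMDK 1 (32 of 44 above 0), 0.95 without iMDK 2 (41 of 44) and 0.91 without DMSO 3 (41 of 44).

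By role, the difference was above 0 for 10 of 11 sensors (median log2 difference 0.66), 7 of 9 signalling genes (0.45), 20 of 20 effectors (0.51) and 3 of 4 genes for a chemokine, a death ligand and antigen presentation (0.30). Among the sensors, OASL, a relative of the oligoadenylate synthetases, was at 218, 10.2 and 35.2 TPM in iMDK limbs, against 7.43, 13.7 and 62.4 TPM in DMSO limbs. As for IRF3, iMDK 1 and DMSO 3 were the highest limbs. TLR7, a receptor for single-stranded RNA, had the smallest p of the list, at 12.6, 5.87 and 8.14 TPM in iMDK limbs, against 3.70, 4.31 and 6.37 TPM in DMSO limbs (log2 difference 0.79, SE 0.34, limma adjusted p = 0.474). ZCCHV, an antiviral protein that binds RNA, and ZNFX1, a helicase that senses RNA, had log2 differences of 1.11 (limma adjusted p = 0.568) and 1.13 (limma adjusted p = 0.625), with overlapping limbs. OAS2 was below 0 at -0.07. Of 3 assembled genes with an OASL2 match, c1088192_g7 had the highest mean and a log2 difference of 1.27 (SE 1.13), which was 0.17 without iMDK 1 and 2.36 without iMDK 2. The others, c1063665_g1 and c1088192_g4, had log2 differences of 0.66 and 0.49.

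Of the signalling genes that stand beside JAK2 and IRF3, NMI, an interferon-induced protein, was at 66.1, 32.6 and 43.0 TPM in iMDK limbs, against 29.6, 16.6 and 49.3 TPM in DMSO limbs (log2 difference 0.64, SE 0.43, limma adjusted p = 0.717). TRAF3, an adaptor on the way to IRF3, was at 1.93, 1.82 and 1.64 TPM in iMDK limbs, against 0.763, 0.621 and 1.29 TPM in DMSO limbs, near the filter minimum of 1 TPM. It passed the filter only with the iMDK limbs, where it was higher, since DMSO 3 alone of the DMSO limbs reached 1 TPM. Its test and its lack of overlap are therefore descriptions. TRAF3 was the only list gene whose groups did not overlap (log2 difference 0.75, limma adjusted p = 0.571). That is 1 of 44 tested list genes, while groups did not overlap for 16.6% of all tested genes. IRF1, a transcription factor of the same family as IRF3, and IN35 had log2 differences of 0.45 and 0.62, and MYD88, an adaptor of Toll-like receptors, one of -0.17. None of these passed the test. Among effectors that act beside DSRAD, MX2, a GTPase that blocks viruses, was at 265, 84.4 and 178 TPM in iMDK limbs, against 82.7, 71.2 and 245 TPM in DMSO limbs. IFI6, IFM3 and LG3BP had log2 differences of 0.41, 0.15 and 0.27. CXL10, a chemokine that interferon induces, had the widest spread of the named genes. It was at 120, 1.58 and 3.39 TPM in iMDK limbs, against 0.247, 1.97 and 24.3 TPM in DMSO limbs. CXL10 passed the filter only with the iMDK limbs, since DMSO 1 stayed under 1 TPM. The antigen presentation genes B2MG and PSB8 (log2 differences of 0.44 and 0.16) and the death ligand TNF10 (-0.12) varied less.

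The limb order of IRF3, TRI25 and DSRAD recurred in the list. iMDK 1 highest and iMDK 2 lowest among iMDK limbs together with DMSO 3 highest among DMSO limbs held for 34 of 44 list genes (77.3%), in 11 of 11 sensors, 18 of 20 effectors, 3 of 9 signalling genes and 2 of 4 of the last role. Centred on each gene's mean over the 6 limbs, the median of the list stood at 0.95, -0.55 and 0.32 in iMDK limbs 1, 2 and 3 and at -0.70, -0.64 and 0.46 in DMSO limbs 1, 2 and 3, on the log2 scale. Over all tested genes these medians stayed between -0.04 and 0.15. Genes of one limb share its library, so this agreement counts 6 libraries and not 44 genes. The map of list genes by limb shows the pattern.

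**Figure D4:**
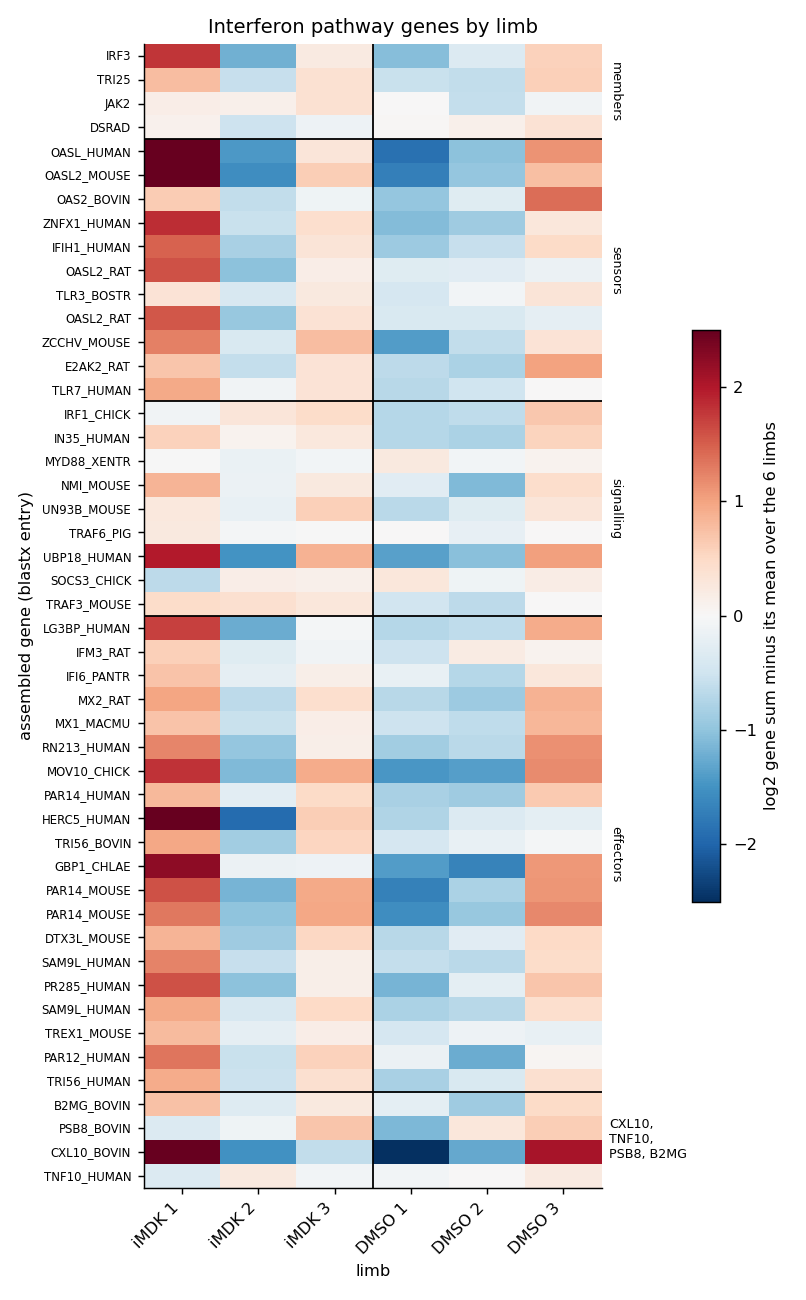
Log2 gene sum minus its mean over the 6 limbs (colour; the scale ends at 2.5 in either direction) for the 4 members and the 44 tested list genes (rows, grouped by role) in iMDK limbs 1 to 3 (left) and DMSO limbs 1 to 3 (right). iMDK 1 and DMSO 3 are red in most rows and iMDK 2, DMSO 1 and DMSO 2 blue; JAK2 is pale throughout.

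Of 7 marker genes of macrophages, 4 had the full limb order of IRF3. The sum over the 7 genes was 2452, 646 and 1665 TPM in iMDK limbs, against 531, 453 and 2115 TPM in DMSO limbs. The sum was mostly one of the assembled genes with an MPEG1 match (c1090171_g3), at 2207, 450 and 1488 TPM in iMDK limbs and 362, 297 and 1909 TPM in DMSO limbs. Other macrophage markers did not follow IRF3: C1QA was at 46.3, 36.3 and 39.4 TPM in iMDK limbs and 50.4, 36.2 and 47.1 TPM in DMSO limbs, and FCN1 was highest in iMDK 2 and DMSO 2. Of the other marker lists, 2 of 10 epidermal genes, 1 of 4 erythrocyte genes and 0 of 5 connective tissue genes, 4 cytotoxic lymphocyte genes, 2 endothelial genes and 1 tested muscle gene had the full order. The erythrocyte sum was 49.2, 36.4 and 74.8 TPM in iMDK limbs, against 7.94, 6.90 and 8.49 TPM in DMSO limbs, the same side as the JAK2 gene sum. HBA2 of that list overlapped between groups, with means of 4.19 TPM in iMDK limbs and 4.465 TPM in DMSO limbs. The cytotoxic lymphocyte sum lay on the same side too, at 14.7, 12.6 and 16.2 TPM in iMDK limbs, against 11.1, 9.63 and 9.02 TPM in DMSO limbs. Of that list, PERF, PTN22 and UN13D overlapped between groups and SASH3 did not. Groups did not overlap for 16.6% of all tested genes. Sums of the remaining marker lists overlapped. Of their genes, only TGM1 and K1C17 of the epidermal list did not, both higher in iMDK limbs. The part of these cell types in the results on the 4 genes was not tested.

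The genes most like each member over the 6 limbs were sought among 1256 tested genes with a name, by the root-mean-square difference of centred log2 values. For IRF3 these were PR285, a helicase (0.138), SN, the macrophage lectin sialoadhesin (0.211), and IFIH1, the RNA sensor MDA5 (0.243). For TRI25 they were TRI39 (0.128), MX1 (0.138) and CHFR (0.158). For JAK2 they were KAT2A (0.0989), NFIP2 (0.106) and ZO1 (0.107), none of them in the interferon list, whereas PR285, IFIH1 and MX1 are. DSRAD varied less than 2-fold between limbs (1.84-fold) and was not searched. The measure is a description over 6 points, and a small range, as in JAK2, lowers it for any pair of genes.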

How the data were processed

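RNA of 3 iMDK-treated and 3 DMSO-treated regenerating limbs, collected at 11 dpa, was sequenced after poly(A) selection and library synthesis with the Nextera XT kit. Reads were trimmed (Trimmomatic) and quantified (kallisto) on an assembled axolotl transcriptome by the authors, who ran DESeq2 for their own tests; tool versions, not given in the sources used here, were left out. The deposited values are a signal: TPM of each assembled transcript, to which the authors applied TMM scaling. They are not counts, so DESeq2 was not used here and no counting interval was computed.

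For the tests, 0.5 was added to each value and the log2 taken. All transcripts, or all gene sums, that reached 1 in 3 or more of the 6 libraries entered limma 3.58.1 (R 4.3.3; lmFit, then eBayes with trend, 2-sided). Differences on this scale understate the change of low transcripts. A feature was called if its fold was above 2 and its p, after Benjamini-Hochberg adjustment, was under 0.05. Isoform use was tested with diffSplice in limma over genes with at least 2 tested transcripts and called at an adjusted p under 0.05. Its p-values rest on a spread pooled over the transcripts of a gene, and those of limma on a spread moderated over all features. Tables were read with data.table (1.17.8) and pandas (2.3.3), and plots drawn with matplotlib (3.10.9). The procedure was tested on simulated data. Alternatives were other pseudocounts (0.1 and 1), filters, scalings, a block for the replicate number, limma without the trend or with robust estimation, and each library left out.

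Names are the blastx entries that the study pairs with 1675 transcripts of 1484 assembled genes. The study lists these transcripts as differing between limbs with skin sutured over the stump and normal regenerating limbs. Other genes have no name here, so the list and the genes searched for likeness are a selected set. Some genes of the pathway, 1 of them chosen as a member, are not reported here. Members, lists and tests were chosen with earlier results of these data known. Named were all member gene sums and tested member transcripts; of the list, the 4 genes per role with the highest mean and the 5 with the smallest p; and the 3 genes most like each member that varied at least 2-fold. Replicate numbers of the labels showed no clear pairing of the limbs. Correlations were 0.062, 0.039 and 0.010 between same-numbered limbs and between -0.084 and 0.051 for the other combinations. With so few limbs these values cannot exclude a pairing.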

Additional observations from a re-analysis of the deposited data

How the results depend on the processing

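The count of member transcripts called was 1, and it became 2 with no filter or without the trend (JAK2 i4 and IRF3 i3) and 0 with a filter of at least 5 TPM, under which JAK2 i4 was not tested. It was 0 without each library in turn (0 to 0). The count of members called for isoform use was 4; it was 0 with the filter of at least 5, under which none of the 4 (JAK2 i1 and i4, IRF3 i2 and i3) was tested, 1 with limma on the log2 ratio (chosen after seeing the data), and between 1 (without DMSO 2; 2 without iMDK 3) and 3 when a library was left out. Gene sums and list genes called stayed at 0 in every alternative run. List genes with an unadjusted p under 0.05 numbered 8 of 45 with no filter, 8 of 44 without DMSO 3 and 9 of 44 without iMDK 2. They numbered 1 with median-of-ratios scaling, with the replicate block and without the trend. The share of all tested genes under 0.05 in these runs was not computed, so the counts have no comparison. The median of the list lay between 0.13 and 0.95 over the libraries left out. With the replicate number as a block, 0 member transcripts, 3 for isoform use and 0 gene sums were called, and all called transcripts numbered 30, against 280 without the block. Whether the numbers pair the limbs could not be settled.

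Directions turned only for differences that were not called. IRF3 i4 isoform use was 0.15 and became -0.026 with a pseudocount of 1, -0.34 with no filter and -0.92 on the log2 ratio. TRI25 i1 was 0.03 and became -0.057 with the TMM scaling undone. Over the libraries left out, the log2 difference ranged from -0.21 to 1.29 for the IRF3 sum, 0.098 to 0.78 for the TRI25 sum, 0.26 to 0.56 for the JAK2 sum, -0.49 to -0.18 for the DSRAD sum, -0.59 to 0.75 for IRF3 i4 and -0.19 to 0.36 for its isoform use, -0.15 to 0.38 for TRI25 i1, -1.39 to 0.15 for JAK2 i5, -0.33 to 2.87 for CXL10, 0.026 to 2.20 for OASL, 0.17 to 2.36 for OASL2 (c1088192_g7), -0.57 to 0.61 for OAS2, -0.37 to 0.50 for PSB8, -0.51 to 0.97 for LG3BP, -0.12 to 0.33 for IFM3 and -0.26 to 0.030 for TNF10. The cause of these changes was not tested. Calls over all transcripts numbered between 30 and 1303 (without the trend), and gene sums between 0 and 820.

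Limits: there are 3 limbs a group, no read totals, names for few genes, and no sequences of the assembled transcripts. Among the tested member transcripts, JAK2 i4, IRF3 i2, IRF3 i4, TRI25 i1 and DSRAD i1 were not among the named ones. Whether they have a protein match is unknown.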
